A study of Mus musculus with 4 samples.

Results

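Myofibroblasts are fibroblasts that have taken on part of the contractile machinery of smooth muscle, and 10 genes of that machinery are described here: the actins Acta1, Acta2 and Actg2, the actin-binding proteins Tagln, Cnn1, Lmod1, Tpm1 and Tpm2, and the myosin chains Myh11 and Myl9. They were chosen by name. A probe set, the group of short probes that reads a transcript on the array, was taken where its annotation gave exactly 1 gene symbol and that symbol was one of the 10. This gave 17 probe sets of the 22690 on the array, and 10 genes of the 12393 that have a probe set with 1 symbol. All 10 genes were among the 8684 that passed a filter on low signal, meaning that the highest of the gene's 4 values reached 4.635 on the log2 scale, the 40th percentile of the table.

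The cells were mammary fibroblasts of female FVB/N mice aged 9 weeks, freed by gravity separation and grown in culture to the second passage, with 1 array for each of 4 groups. PyMT Ets2-null fibroblasts came from PyMT;Fsp-cre;Ets2db/loxP mice, and PyMT Ets2-present fibroblasts from PyMT;Ets2db/loxP mice. Normal Ets2-null fibroblasts came from Fsp-cre;Ets2db/loxP mice, and normal Ets2-present fibroblasts from Ets2db/loxP mice. PyMT is the polyoma middle T oncogene, expressed in the mammary epithelium, and the fibroblasts of these mice were taken before the tumours were invasive. Every group, controls included, carried 1 conventional knockout allele of the transcription factor Ets2 (db, in the DNA-binding domain) and 1 conditional allele (loxP), so each Ets2 difference sets 1 intact copy against none. Cre, driven by the Fibroblast Specific Protein 1 promoter, was present in both Ets2-null groups and in neither Ets2-present group, so Cre and the loss of Ets2 cannot be told apart. The number of mice behind each array was not given in the sources used here.

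With 1 array for each group, a difference between groups is a difference between 2 arrays. There is no replicate check, no error and no p-value. Differences are given on the log2 scale, on which 1 is 2-fold, and a gene is counted as higher or lower at 2-fold or more. As a measure of how far readings of the same transcripts can lie apart, the difference was compared between the 2 probe sets of highest mean in each of the 3373 kept genes with several kept probe sets. The SD of their disagreement was 0.68 for Ets2-null minus Ets2-present in PyMT fibroblasts and 0.48 in normal fibroblasts. It was 0.70 for PyMT minus normal in Ets2-null fibroblasts and 0.51 in Ets2-present fibroblasts.

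In smooth muscle and myofibroblasts, force comes from myosin filaments that pull on actin filaments, and phosphorylation of the myosin light chain switches the myosin on. Calponin, transgelin, tropomyosins and leiomodin bind the actin filaments and set how they assemble and how myosin reaches them. Most genes of this machinery are transcribed by serum response factor, Srf, together with myocardin or the related factors Mrtfa and Mrtfb, and TGF-beta is the best known signal that turns fibroblasts into myofibroblasts.

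Promoter sequences, the 250 bases before the transcription start, were found for 7 of the 10 members in RefSeq (build GRCm38.p6). They are shown because 2 DNA motifs of this regulation can be read in them: the CArG box, which Srf binds, and CATTCC, which factors of the TEAD family bind. The 5 promoters that hold either motif are printed 5′ to 3′ on the strand of the gene, with the motifs of both kinds in capitals. Where a TEAD motif lies on the other strand, its reverse complement is what is shown.
Acta1, chr8:123894776-123895025, minus strand: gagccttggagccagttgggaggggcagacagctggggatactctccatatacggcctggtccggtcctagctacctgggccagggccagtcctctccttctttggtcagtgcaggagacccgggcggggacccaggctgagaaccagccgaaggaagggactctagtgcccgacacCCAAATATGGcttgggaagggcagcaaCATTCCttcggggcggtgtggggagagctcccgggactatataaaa
Acta2, chr19:34255374-34255623, minus strand: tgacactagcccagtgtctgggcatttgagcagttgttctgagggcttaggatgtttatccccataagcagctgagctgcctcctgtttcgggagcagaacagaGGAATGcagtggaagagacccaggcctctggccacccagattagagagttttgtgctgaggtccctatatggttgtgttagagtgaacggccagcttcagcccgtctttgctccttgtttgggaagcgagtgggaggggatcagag
Myl9, chr2:156775214-156775463, plus strand: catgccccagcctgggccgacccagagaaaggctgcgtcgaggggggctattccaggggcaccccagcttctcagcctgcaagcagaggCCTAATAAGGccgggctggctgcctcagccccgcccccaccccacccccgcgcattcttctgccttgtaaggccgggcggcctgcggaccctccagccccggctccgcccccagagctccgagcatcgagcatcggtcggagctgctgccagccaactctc
Lmod1, chr1:135324563-135324812, plus strand: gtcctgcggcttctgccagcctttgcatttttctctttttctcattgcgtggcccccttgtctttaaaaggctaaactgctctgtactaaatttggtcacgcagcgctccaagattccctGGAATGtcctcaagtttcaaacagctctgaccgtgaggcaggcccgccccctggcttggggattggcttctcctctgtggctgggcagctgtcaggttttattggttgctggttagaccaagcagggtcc
Tpm1, chr9:67049214-67049463, minus strand: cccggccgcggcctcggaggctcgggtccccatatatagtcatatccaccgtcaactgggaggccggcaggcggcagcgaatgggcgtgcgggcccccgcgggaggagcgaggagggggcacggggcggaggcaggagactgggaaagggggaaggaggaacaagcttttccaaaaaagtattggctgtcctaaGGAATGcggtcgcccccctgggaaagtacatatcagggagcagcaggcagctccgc

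A CArG box was found in 2 of the 7 windows, those of Acta1, at 73 to 64 bases before the start, and of Myl9, at 161 to 152 bases. Of 32851 promoter windows of this length, 1.47% held one. The box was searched as CC, a run of 6 bases that are each A or T, and GG, on both strands. With 1 other base allowed in the middle run, Acta2 also held a pair of matches, at 84 to 75 and 34 to 25 bases before the start, which are not in capitals above, and 3 of the 7 windows held a match, beside 8.59% of all windows. CATTCC was found in 4 of the 7 windows, on the plus strand in Acta1 at 46 to 41 bases, and on the minus strand in Acta2 at 146 to 141, Lmod1 at 130 to 125 and Tpm1 at 56 to 51 bases before the start, against 12.6% of all windows. GGAA, the core bound by ETS factors such as Ets2, was present in 7 of 7 on either strand, but also in 93.4% of all windows. Each CATTCC contains the reverse complement of GGAA, so those motifs overlap. These are matches of letters and not shown binding sites.

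Of the 10 members, 9 had a higher level in PyMT than in normal fibroblasts both without and with Ets2, the exception being Myl9. Among all kept genes, 31.1% had this order. For 8 members both PyMT arrays lay above both normal arrays, an order found in 24.8% of kept genes, and for 8 members the highest of the 4 levels was that of PyMT Ets2-present fibroblasts, which held for 22.8% of kept genes. Without Ets2 the PyMT fibroblasts had lower levels of 8 members than PyMT fibroblasts with Ets2, mostly by small amounts, while Myh11 was 2.62-fold higher. Among kept genes 48.7% were lower in this comparison. The plot of each probe set by array shows these orders.

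**Figure D1:**
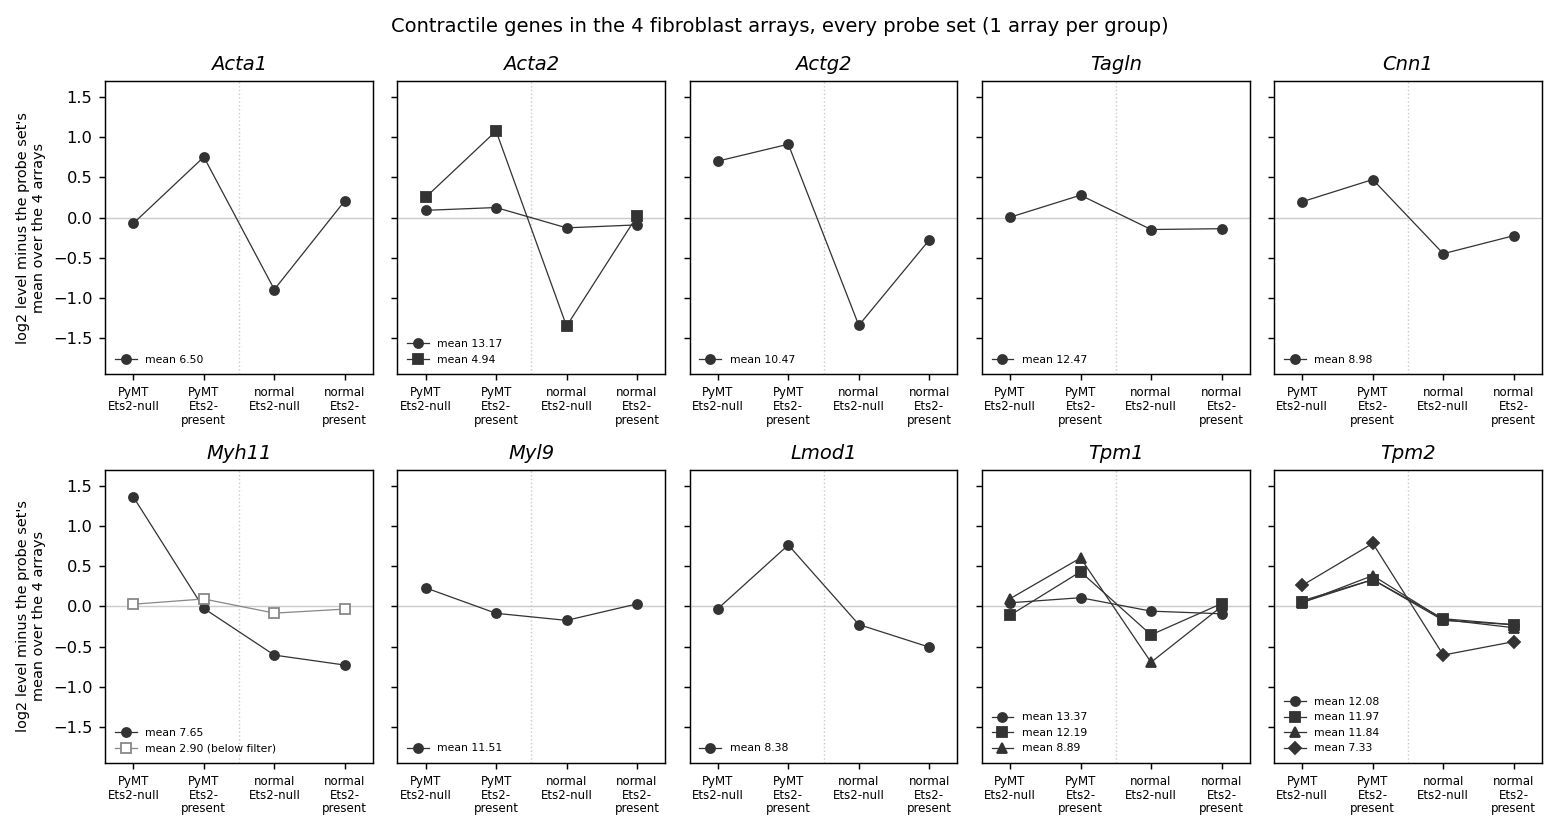
Log2 level of every probe set of the 10 contractile genes in the 4 arrays, minus that probe set's mean over the arrays, with 1 point per array, and lines joining the points of a probe set. Legends give the mean level of each probe set, and open squares mark the Myh11 probe set that was below the filter on all arrays. In 16 of 17 probe sets PyMT lay above normal both without and with Ets2, and Myh11 was highest in PyMT Ets2-null fibroblasts.

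Acta2, the smooth muscle alpha-actin by which myofibroblasts are usually recognised, was read by 2 probe sets. The one of higher mean, 1416454_s_at, gave 13.27 in PyMT Ets2-null, 13.30 in PyMT Ets2-present, 13.05 in normal Ets2-null and 13.08 in normal Ets2-present fibroblasts. All 4 arrays thus lay within 0.25. Acta2 differed by -0.04 between Ets2-null and Ets2-present fibroblasts in PyMT and also in normal cells, and by 0.22 between PyMT and normal with and without Ets2, a 1.16-fold difference. The suffix of this probe set marks probes shared with transcripts of other genes, so its reading may include them. The other Acta2 probe set, 1456658_at, gave 5.19, 6.02, 3.59 and 4.96 on the same arrays, and normal Ets2-null fibroblasts were below the filter level. On that reading Acta2 was 1.77-fold lower in Ets2-null than in Ets2-present PyMT fibroblasts, and 2.08-fold higher in PyMT than in normal fibroblasts with Ets2. Differences against the normal Ets2-null array are less sure. Taken against the filter level instead of its own value, Acta2 was at least 1.25-fold lower in Ets2-null than in Ets2-present normal fibroblasts (2.58-fold as measured) and at least 1.47-fold higher in PyMT than in normal fibroblasts without Ets2 (3.04-fold as measured). The 2 probe sets gave the same order of the 4 arrays, with very different sizes.

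Acta1, the alpha-actin of skeletal muscle, had log2 levels of 6.43 in PyMT Ets2-null, 7.25 in PyMT Ets2-present, 5.60 in normal Ets2-null and 6.71 in normal Ets2-present fibroblasts. It was lower without Ets2 in both settings, 1.77-fold in PyMT and 2.15-fold in normal fibroblasts. The PyMT levels were 1.77-fold higher without Ets2 and 1.46-fold higher with Ets2. In the Ets2 difference of normal fibroblasts 152 of 8684 kept genes were lower than Acta1.

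Actg2, the gamma-actin of enteric smooth muscle, gave 11.17 in PyMT Ets2-null, 11.38 in PyMT Ets2-present, 9.13 in normal Ets2-null and 10.19 in normal Ets2-present fibroblasts. Both PyMT arrays stood clear of both normal ones. The PyMT difference was 2.04 without Ets2 (4.12-fold) and 1.19 with Ets2 (2.28-fold), and 102 of the kept genes had a larger PyMT difference without Ets2. Between Ets2-null and Ets2-present cells Actg2 was 1.16-fold lower in PyMT and 2.09-fold lower in normal fibroblasts. The cytoplasmic actins, which all cells use, were measured too: Actb was at 13.48, 13.38, 13.28 and 13.30, and Actg1 at 12.96, 12.93, 12.67 and 12.76, each in the order PyMT Ets2-null, PyMT Ets2-present, normal Ets2-null and normal Ets2-present. The control probe set for the 5′ end of Actb was at 10.17, 10.30, 9.70 and 10.30, a wider spread than that of the gene's main probe set, whose level lies near the top of the scale. Muscle actins share long stretches of sequence, so their probe sets may read one another's transcripts. This was not tested.

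Tagln, transgelin, an actin-binding protein and early marker of smooth muscle, was at 12.48 in PyMT Ets2-null, 12.75 in PyMT Ets2-present, 12.32 in normal Ets2-null and 12.33 in normal Ets2-present fibroblasts. Its differences were -0.27 and -0.01 for Ets2-null minus Ets2-present in PyMT and normal fibroblasts, and 0.15 and 0.42 for PyMT minus normal without and with Ets2. All 4 were smaller than the SD of disagreement between probe sets.

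Cnn1, calponin, which binds actin and slows the myosin motor, was at 9.18 in PyMT Ets2-null, 9.46 in PyMT Ets2-present, 8.53 in normal Ets2-null and 8.76 in normal Ets2-present fibroblasts. Both PyMT arrays were above both normal arrays, by 1.57-fold without Ets2 and 1.62-fold with it. Without Ets2 the level was 1.21-fold lower in PyMT and 1.17-fold lower in normal fibroblasts.

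Lmod1, leiomodin, which starts new actin filaments in smooth muscle, was at 8.36 in PyMT Ets2-null, 9.15 in PyMT Ets2-present, 8.16 in normal Ets2-null and 7.88 in normal Ets2-present fibroblasts. The PyMT Ets2-present array stood above the other 3. The PyMT difference was 0.20 without Ets2 (1.15-fold) and 1.27 with Ets2 (2.41-fold). Lmod1 was 1.73-fold lower in Ets2-null than in Ets2-present PyMT fibroblasts but 1.22-fold higher in Ets2-null than in Ets2-present normal fibroblasts, and the Ets2 difference in PyMT minus that in normal fibroblasts was -1.07.

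The tropomyosins Tpm1 and Tpm2 lie along the actin filament and gate the access of myosin. The Tpm1 probe set of highest mean gave 13.42 in PyMT Ets2-null, 13.48 in PyMT Ets2-present, 13.31 in normal Ets2-null and 13.28 in normal Ets2-present fibroblasts. A second Tpm1 probe set, 1423049_a_at, gave 12.08, 12.62, 11.83 and 12.22 in the same order, and the last, 1456623_at, gave 8.99, 9.49, 8.20 and 8.89. All 3 had their highest level in PyMT Ets2-present fibroblasts, but the range over the arrays was 0.20, 0.79 and 1.30. The levels of the first lie near the top of the scale. In normal fibroblasts the Ets2-null minus Ets2-present difference of Tpm1 was 0.03 on the first, -0.39 on the second and -0.69 on the last, so its direction depended on the probe set.

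Tpm2 had 4 probe sets. The 3 of higher mean stayed close to one another: 1425028_a_at, which represents the gene, gave 12.15 in PyMT Ets2-null, 12.41 in PyMT Ets2-present, 11.90 in normal Ets2-null and 11.85 in normal Ets2-present fibroblasts, and all 3 had an Ets2-present PyMT difference between 0.56 and 0.65. The fourth, 1419739_at, gave 7.59, 8.12, 6.73 and 6.89. It had a PyMT difference of 0.87 without Ets2 (1.82-fold) and 1.22 with Ets2 (2.33-fold). As in Acta2 and Tpm1, the probe set of lowest mean spanned the widest range, 1.39 against 0.56 for the one of highest mean. Tpm1 and Tpm2 make many transcripts by splicing and by other start sites, and which of them each probe set reads was not worked out here. The cause of the different ranges was not tested.

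Myh11, the heavy chain of smooth muscle myosin and a marker of mature smooth muscle, was with Myl9 one of the 2 members whose highest level was in PyMT Ets2-null fibroblasts. Its probe set of higher mean, 1448962_at, gave 9.01 in PyMT Ets2-null, 7.62 in PyMT Ets2-present, 7.04 in normal Ets2-null and 6.92 in normal Ets2-present fibroblasts. The PyMT Ets2-null array stood above the other 3. Myh11 was 2.62-fold higher in Ets2-null than in Ets2-present PyMT fibroblasts, where 312 of 8684 kept genes had a larger difference, and 1.09-fold higher in Ets2-null than in Ets2-present normal fibroblasts. The PyMT difference was 3.92-fold without Ets2 and 1.63-fold with it. The other Myh11 probe set, 1418122_at, was below the filter level on all arrays, at 2.93, 2.996, 2.82 and 2.87, and so gave no second reading of this pattern.

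Myl9, the regulatory light chain that is phosphorylated to start contraction, was at 11.74 in PyMT Ets2-null, 11.42 in PyMT Ets2-present, 11.34 in normal Ets2-null and 11.54 in normal Ets2-present fibroblasts. PyMT and normal levels overlapped. The Ets2-null level was 1.25-fold higher than the Ets2-present level in PyMT and 1.15-fold lower in normal fibroblasts, and the range over the 4 arrays was 0.41.

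In PyMT fibroblasts, 0 members were at least 2-fold lower without Ets2 and 1 was higher, Myh11. Among all kept genes 7.76% were at least 2-fold lower and 7.63% higher. The median of the members was -0.24, beside 0.02 for all kept genes, and 8 of 10 members lay below 0, beside 48.7% of kept genes. For 7 of 10 the difference was within 1 SD of the disagreement between probe sets. In normal fibroblasts 2 members, Acta1 and Actg2, were at least 2-fold lower without Ets2 and 0 were higher, beside 2.41% and 3.02% of kept genes, and the medians were -0.02 for the members and -0.02 for all kept genes. On the kept probe sets of lowest mean the members' median was -0.21 in normal fibroblasts, beside -0.04 for all genes. There 3 members were at least 2-fold lower, beside 313 of 8692 genes.

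PyMT and normal fibroblasts were compared without and with Ets2, and these 2 differences share no array. Without Ets2, 2 members were at least 2-fold higher in PyMT than in normal fibroblasts, Actg2 and Myh11, and 0 were lower, beside 9.70% of kept genes higher and 11.2% lower. The median was 0.33 for the members and 0.05 for all kept genes, and 10 of 10 members were above 0. With Ets2, 2 members were at least 2-fold higher, Actg2 and Lmod1, and 0 were lower, beside 5.41% higher and 6.24% lower among kept genes. The median was 0.55 for the members and -0.01 for all kept genes, and 9 of 10 were above 0. At 2-fold, then, 2 members of 10 stand beside 9.70% and 5.41% of kept genes, while the members' common direction at small sizes stands beside the 52.4% and 49.5% of kept genes above 0.

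**Figure D2:**
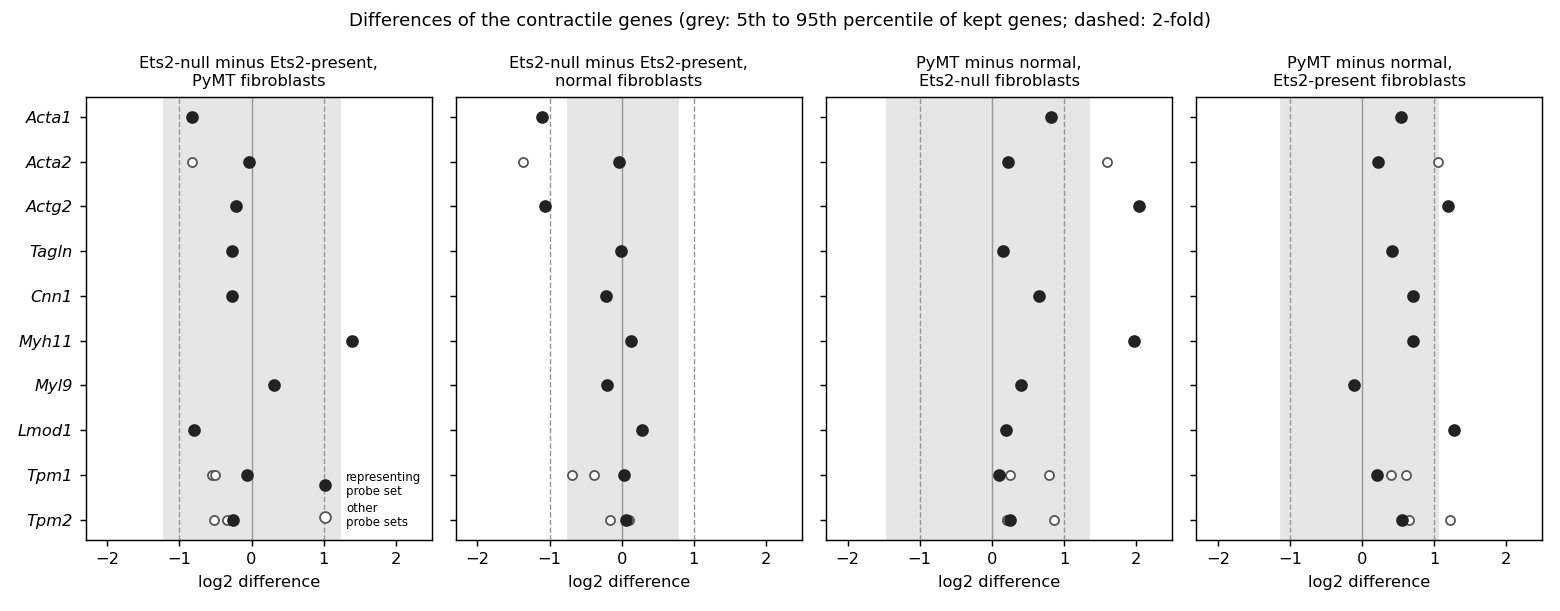
Log2 differences of the 10 contractile genes in the 4 comparisons, with filled points for the probe set that represents the gene and open points for its other probe sets that passed the filter, 2 arrays behind each point. The grey band spans the 5th to 95th percentile of the 8684 kept genes and the dashed lines mark 2-fold. Myh11 lies beyond the band in the Ets2 difference of PyMT fibroblasts (1.39), and Acta1 (-1.10), Actg2 (-1.06) and the second Acta2 probe set (-1.37) in that of normal fibroblasts.

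Where the Ets2 difference in normal fibroblasts was subtracted from that in PyMT fibroblasts, 1 member, Lmod1 (-1.07), was at least 2-fold lower and 1, Myh11 (1.26), at least 2-fold higher, beside 11.2% and 10.2% of kept genes. The members' median was -0.03 and that of kept genes 0.04. Lmod1 and Myh11 thus lay on opposite sides of 0. Setting the centred levels of members against each other, the closest pair was Acta2 and Tpm1, with a root mean square difference of 0.04 over the 4 arrays, followed by Tagln and Tpm2 at 0.06. The farthest pair was Acta1 and Myh11, at 0.95. The levels were centred but not scaled, so members of small range lie close whatever their pattern. Acta2 and Tpm1 had ranges of 0.25 and 0.20 over the arrays, and Acta1 and Myh11 of 1.65 and 2.09. These distances thus say little about shared behaviour.

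Levels were read on RNA of whole cultures, so that fewer contractile cells and less contractile RNA in each cell cannot be told apart. All 10 of the fibroblast markers, among them the collagens Col1a1 and Col3a1, Pdgfra and Vim, were above the filter on all 4 arrays, with a summed level (log2 of the sum of linear levels) of 15.5 to 15.8. The sum is carried by collagens and Vim, whose levels lie near the top of the scale. Within the list 3 of 10 were at least 2-fold lower in PyMT than in normal fibroblasts without Ets2 and 3 of 10 with it. Lum, the matrix proteoglycan lumican, was at 5.82 in PyMT Ets2-null, 6.73 in PyMT Ets2-present, 11.62 in normal Ets2-null and 9.26 in normal Ets2-present fibroblasts, Dcn, decorin, was at 10.07, 10.76, 12.48 and 11.86, and Pdgfra, a growth factor receptor, at 11.59, 10.18, 11.94 and 11.82. The median of the list for PyMT minus normal was -0.02 without Ets2, with 5 markers above 0 and 5 below. With Ets2 it was -0.28, with 2 markers above 0 and 8 below. Some fibroblast markers thus moved with PyMT too, and their part in the contractile levels was not tested.

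Markers of pericytes and vascular smooth muscle, cells that carry the same contractile genes, summed to 11.56 in PyMT Ets2-null, 11.05 in PyMT Ets2-present, 10.48 in normal Ets2-null and 10.51 in normal Ets2-present fibroblasts, with 6, 7, 5 and 5 of 10 at or above the filter level. Their sum was thus highest in the array where Myh11 was highest, and higher in PyMT than in normal fibroblasts. It is carried mainly by Pdgfrb, a receptor that fibroblasts share, at 10.95, 10.39, 9.94 and 10.07. Mcam, a pericyte adhesion protein, was at 8.90, 7.12, 5.16 and 6.17, and Rgs5, a regulator of G proteins in pericytes, at 6.36, 5.29, 4.23 and 4.91 in that order. On its kept probe set of lowest mean, however, Rgs5 had a PyMT minus normal difference of 0.05 without Ets2 and an Ets2-null minus Ets2-present difference of 0.82 in normal fibroblasts. Other markers ran otherwise: Cspg4, a pericyte proteoglycan, was at 3.84, 5.27, 4.11 and 4.60, so that PyMT Ets2-present fibroblasts alone reached the filter, and Anpep, an aminopeptidase named with its values in view, was at 4.48, 5.18, 7.22 and 4.58. Kcnj8 and Abcc9, channel subunits that mark pericytes, were below the filter on all arrays. What part these cells have in the contractile levels was not tested.

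Myoepithelial cells of the mammary gland also carry Acta2, Cnn1 and Myh11. Their markers summed to 8.14 in PyMT Ets2-null, 8.25 in PyMT Ets2-present, 8.47 in normal Ets2-null and 8.29 in normal Ets2-present fibroblasts, with 3, 2, 4 and 3 of 11 at or above the filter, and 6 of them, Krt17, Oxtr, Itgb4, Lama3, Lamb3 and Col17a1, were below it on all arrays. Krt14 reached 4.85 in PyMT Ets2-null fibroblasts and was below the filter elsewhere. Krt5, at 5.24, 5.53, 4.79 and 4.77 in the same order, and Itga6, at 7.03, 7.28, 6.46 and 7.18, were above the filter on all arrays. Trp63, at 3.81, 3.32, 6.57 and 4.57, and Cdh3, at 4.33, 4.35, 6.17 and 5.56, were higher in normal than in PyMT fibroblasts. Of 14 skeletal muscle markers, which bear on Acta1, 12 were below the filter on all arrays, among them Ckm, Myh1, Myod1 and Ttn, and Myog was at 5.33 in PyMT Ets2-null fibroblasts and below the filter in the other 3. The other kept marker, Tnni2, was at 3.89 in PyMT Ets2-null, 4.17 in PyMT Ets2-present, 2.85 in normal Ets2-null and 5.23 in normal Ets2-present fibroblasts. Of these levels the last alone reached the filter. Luminal markers summed to 8.36, 8.13, 7.74 and 8.61, with Krt8 and Cdh1 below the filter on all arrays. Of the keratins that were present, Krt19 was higher in PyMT (7.21 and 7.36) than in normal fibroblasts (4.38 and 4.98), and Krt18 was lower in PyMT (4.49 and 4.23) than in normal fibroblasts (6.72 and 8.05). Endothelial markers summed to 8.20, 9.06, 9.10 and 9.38, with Pecam1 and Cdh5 below the filter on all arrays, and Flt1, a receptor for vascular growth factor, was at 7.14, 8.68, 8.43 and 9.02.

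Macrophage markers summed to 9.58, 10.16, 8.76 and 8.83, a sum carried by Lyz2, lysozyme, at 9.09, 9.13, 7.11 and 7.39. Of their 9 kept genes 8 were below 0 in Ets2-null minus Ets2-present PyMT fibroblasts, and 5 were at least 2-fold lower, with a median of -1.04. Low signal bears on this. In PyMT Ets2-null fibroblasts Cd68, Fcgr3, Msr1, Adgre1, Cd14 and Mrc1 were below the filter level, as were Cd68 and Ptprc in PyMT Ets2-present fibroblasts. Ptprc was the kept marker above 0, with a difference of 0.59. With low values raised to that level, the difference was 0 for Cd68, -0.46 for Fcgr3 and -1.53 for Msr1. Csf1r, the receptor that macrophages need to survive, was at 6.19 in Ets2-null and 8.12 in Ets2-present PyMT fibroblasts, Msr1, a scavenger receptor, at 3.88 and 6.16, and Adgre1, the F4/80 antigen, at 4.52 and 6.17. Csf1r, Msr1 and Adgre1 were thus lower without Ets2 in PyMT fibroblasts, where 8 members and 48.7% of kept genes had differences below 0. Adipocyte markers summed to 12.48, 12.14, 11.45 and 11.58, higher in PyMT than in normal fibroblasts. Of the 8 on the array, 4 were below the filter on all arrays: Adipoq, Lep, Cidec and Retn. The sum is carried mainly by Lpl, lipoprotein lipase, with PyMT minus normal differences of 0.72 without Ets2 and 0.14 with it. All 4 kept markers were above 0 in both of these comparisons, with medians of 1.57 without Ets2 and 1.68 with it. Fabp4 had differences of 3.17 and 2.32, and Cebpa of 1.53 and 1.04. Pparg, the factor that drives fat cell formation, was at 6.37, 7.80, 4.75 and 4.84. What part epithelial, endothelial, macrophage or fat cells have in the contractile levels was not tested.

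Array medians were from 5.63 to 5.75, and correlations between arrays from 0.959 to 0.985. The PyMT Ets2-null array, in which Myh11 stood out, had the lowest median, and its 3 correlations with the other arrays were the lowest. Its control probe sets for 18S ribosomal RNA averaged 9.63, against 8.16 in PyMT Ets2-present, 7.94 in normal Ets2-null and 8.08 in normal Ets2-present fibroblasts. Whether this array's quality has a part in the differences that use it was not tested. Ets2 itself was at 11.22 in PyMT Ets2-null, 11.21 in PyMT Ets2-present, 11.89 in normal Ets2-null and 11.86 in normal Ets2-present fibroblasts. Whether its probe set reads the deleted part of the gene was not worked out, so the level checks nothing about the deletion.

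Beyond the 10 members, 22 other genes of smooth muscle contraction were listed, of which 17 were on the array and 13 kept. In PyMT minus normal, 4 were at least 2-fold higher and 1 lower without Ets2, and 3 were higher and 1 lower with Ets2, with medians of 0.34 and 0.53. The members' own medians were 0.33 and 0.55. Ppp1r14a, an inhibitor of the phosphatase that switches myosin off, was at 6.46 in PyMT Ets2-null, 5.90 in PyMT Ets2-present, 4.25 in normal Ets2-null and 3.88 in normal Ets2-present fibroblasts, so both normal arrays were below the filter level. Ldb3, a Z-line protein, had a PyMT difference of 2.47 without Ets2 and 1.71 with it, Smtn, the smooth muscle protein smoothelin, 1.66 and 1.13, and Itga8, an integrin chain, -1.96 and -1.90. These 3 fall outside the naming rule and were picked with their values in view. Csrp1, a LIM protein of smooth muscle, and Pdlim7, which links actin to kinases, each had a difference of -0.47 between Ets2-null and Ets2-present PyMT fibroblasts. In the Ets2 difference of PyMT fibroblasts the median of this list was 0.12, with 1 gene at least 2-fold higher and 0 lower. That gene was Des, desmin, at 4.86 in PyMT Ets2-null fibroblasts and below the filter in the other 3.

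**Figure D3:**
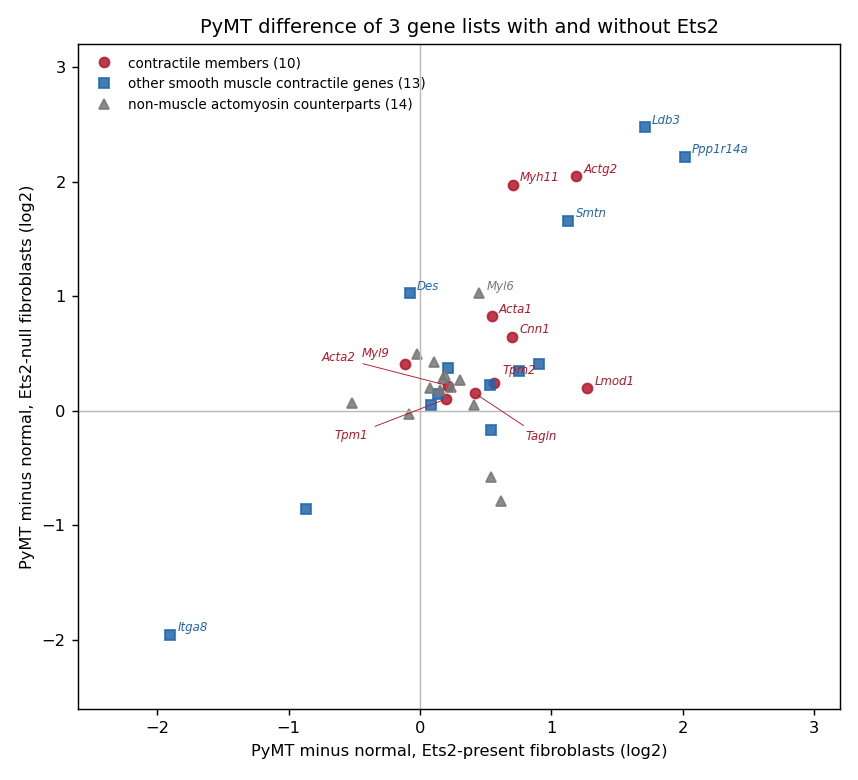
PyMT minus normal differences (log2) of each gene, without Ets2 on the vertical axis and with Ets2 on the horizontal axis, for the 10 contractile members (circles), 13 other smooth muscle contractile genes (squares) and 14 non-muscle actomyosin genes (triangles), 1 point per gene and 2 arrays per axis. Of the 10 members, 9 lie above 0 on both axes, with Actg2 at 2.04 and 1.19, and Myl9 lies left of 0 (-0.12).

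The non-muscle counterparts of the members, cytoplasmic actins and myosin chains and their partners, were 14 of 15 on the array and 14 kept. Their medians were 0.04 and -0.04 for Ets2-null minus Ets2-present in PyMT and normal fibroblasts, and 0.20 and 0.18 for PyMT minus normal without and with Ets2. In PyMT fibroblasts 2 were at least 2-fold lower without Ets2: Tagln2, the transgelin of non-muscle cells, at 6.64 in Ets2-null and 7.84 in Ets2-present cells, and Actn4, a non-muscle alpha-actinin, at 9.44 and 10.62. Cnn2, the calponin of non-muscle cells, had a difference of -0.34, near that of Cnn1, and Myl12b, a non-muscle regulatory light chain, 0.73.

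Srf and Mrtfa, which drive transcription of the contractile genes, were lower without Ets2 in PyMT fibroblasts. They belong to a list of 16 genes for Srf, its partners and rivals, the TEAD factors and their coactivators, of which 15 were kept. For Ets2-null minus Ets2-present, 8 of the 15 were below 0 in PyMT fibroblasts (median -0.38) and 11 of 15 in normal fibroblasts (median -0.25). Srf was at 7.30 in PyMT Ets2-null, 8.34 in PyMT Ets2-present, 7.76 in normal Ets2-null and 8.06 in normal Ets2-present fibroblasts. Mrtfa, which carries the signal of actin assembly to Srf, was at 6.64, 7.77, 6.77 and 7.22 in that order. Both were at least 2-fold lower in Ets2-null than in Ets2-present PyMT fibroblasts, with differences of -1.04 and -1.13, the only 2 genes of the list to be so. Myocd, the smooth muscle partner of Srf, was at 8.002, 8.70, 7.01 and 7.31, with both PyMT arrays above both normal arrays, and Mrtfb was not kept. Of the TEAD factors, Tead3 was at 5.98, 4.99, 5.30 and 4.60 and had a difference of 0.99 between Ets2-null and Ets2-present PyMT fibroblasts. Tead4, at 4.64, 3.78, 3.21 and 3.28, reached the filter in PyMT Ets2-null fibroblasts alone, with a difference of 0.86. Tead3 and Tead4 thus ran opposite to Srf and Mrtfa in PyMT fibroblasts. Tead1 (-0.38) and Tead2 (-0.70), which were above the filter on all arrays, ran the same way as Srf and Mrtfa. The levels of Srf and Mrtfa were highest in PyMT Ets2-present fibroblasts, as were those of 8 members and of 22.8% of kept genes. In PyMT Ets2-null fibroblasts the levels of Srf and Mrtfa were the lowest of the 4. This was so for 0 members and for 32.9% of kept genes.

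Of 15 genes outside the list that are known targets of Srf and the Mrtf factors, 14 were on the array and kept. Their medians were 0.32 and 0.18 for PyMT minus normal without and with Ets2, with 2 at least 2-fold higher in each. Ankrd1, a stretch-responsive nuclear protein, was at 11.66 in PyMT Ets2-null, 12.47 in PyMT Ets2-present, 9.77 in normal Ets2-null and 10.53 in normal Ets2-present fibroblasts, the order that Actg2 and Acta2 had. Zyx, zyxin, an adhesion protein, was lower in PyMT (8.96 and 9.66) than in normal fibroblasts (9.53 and 10.08), but on its kept probe set of lowest mean it was higher in PyMT, by 0.53 without and 0.20 with Ets2. Itga5, the fibronectin receptor chain, had an Ets2-null minus Ets2-present difference of -0.76 in PyMT fibroblasts and Fhl2, a cofactor of Srf, 0.56.

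TGF-beta ligands, receptors and response genes, 17 of 18 on the array and all 17 kept, had a median of -0.53 in the Ets2 difference of PyMT fibroblasts, with 6 genes at least 2-fold lower and 1 higher. Inhba, which makes activin A, was at 9.71 in PyMT Ets2-null, 11.45 in PyMT Ets2-present, 9.36 in normal Ets2-null and 10.05 in normal Ets2-present fibroblasts, and the ligand Tgfb3 at 9.42, 10.69, 8.15 and 8.82. Both were highest in PyMT Ets2-present fibroblasts. Tgfb1 was at 3.07, 5.71, 4.15 and 4.60, so only PyMT Ets2-present fibroblasts reached the filter level, and its difference of -2.65 became -1.08 when values below that level were raised to it. Bambi, a decoy receptor that damps TGF-beta signals, was lower by 1.41 on the log2 scale without Ets2 in PyMT fibroblasts.

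**Figure D4:**
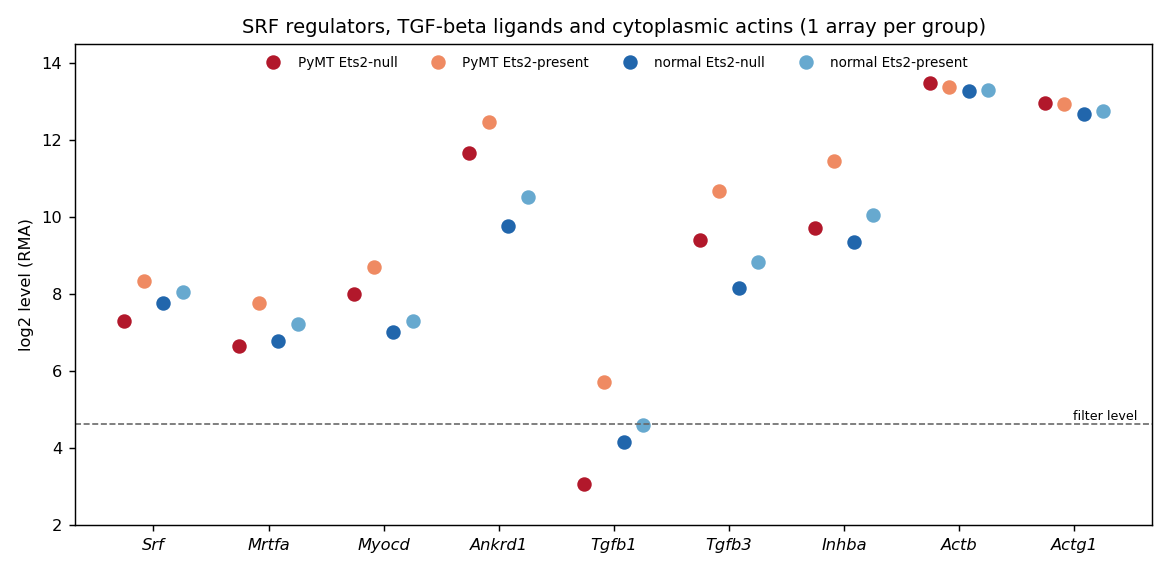
Log2 levels of Srf, its partners Mrtfa and Myocd, the Srf target Ankrd1, the ligand genes Tgfb1, Tgfb3 and Inhba and the cytoplasmic actins Actb and Actg1 in the 4 arrays, 1 point per array, with the filter level dashed. Only arrays within a gene can be compared. Srf was lower in PyMT Ets2-null (7.30) than in PyMT Ets2-present fibroblasts (8.34), and Actb was between 13.28 and 13.48, near the top of the scale.

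Force leaves the cell at focal adhesions, where integrins are tied to actin. Focal adhesion genes, 18 of 19 kept, had medians of -0.28 for Ets2-null minus Ets2-present in PyMT fibroblasts, -0.17 in normal fibroblasts, and 0.29 and 0.34 for PyMT minus normal without and with Ets2. Lims2, a scaffold that links integrins to actin, was at 7.92 in PyMT Ets2-null, 8.96 in PyMT Ets2-present, 6.67 in normal Ets2-null and 6.83 in normal Ets2-present fibroblasts, a pattern with its highest level where Lmod1 also had its own. Tln1, talin, which ties integrins to actin, had an Ets2-null minus Ets2-present difference of -0.91 in PyMT fibroblasts and Pxn, paxillin, one of 0.90, which was 0.13 on its kept probe set of lowest mean.

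Genes by which myofibroblasts are known apart from contraction, 12 of 16 kept, had a median of 0.25 for Ets2-null minus Ets2-present in PyMT fibroblasts and -0.10 in normal fibroblasts, and 3 were at least 2-fold lower without Ets2 in PyMT. These were Fap, a surface protease of activated fibroblasts, at 5.30 in Ets2-null and 7.67 in Ets2-present cells, Thy1, a surface glycoprotein, at 7.54 and 8.79, and Tnc, the matrix protein tenascin C, at 10.98 and 12.03. Fn1, fibronectin, was at 12.87 and 12.42.

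The non-member genes whose centred levels came closest to those of Acta1, among 3028 kept genes with a range of at least 1 over the arrays, were Zbtb25 (root mean square difference 0.04), Rab32 (0.10), Grhl1 (0.11), Chml (0.11), Pla2g7 (0.12) and Yae1d1 (0.13), over 4 arrays. For Acta2 they were Rhob (0.27), Lasp1 (0.28), S100a16 (0.28), Mrpl10 (0.28), Dmac2l (0.29) and Csnk1g1 (0.29). Acta2 spanned 0.25 over the arrays while each candidate spanned at least 1, so that none could come close, and these 6 names say little about Acta2.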

How the data were processed

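RNA of cultured mammary fibroblasts was hybridised to 4 Affymetrix mouse expression arrays of 1 colour, 1 per group, and groups were taken from the sample labels. The deposited values are log2 levels of 22690 probe sets that the authors computed by RMA (version not given in the sources used here), which corrects background, normalizes between arrays and summarizes probes. Signals near background are thus compressed, and small differences may be reduced. Scanner files were not used here, so there are no detection calls. The number of arrays limits the precision, as no spread can be computed.

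Symbols came from the platform annotation, which gave 1 gene for 20380 probe sets, several for 691 and none for 1555, with 64 control probe sets left out. By Entrez ID 20351 matched the RefSeq gene table, and 0 symbols were updated. Where a gene had several probe sets, the one of highest mean stood for it, and the gene was kept if its highest value reached 4.635, the 40th percentile, which left 8684 of 12393 genes. Differences of log2 values were taken between arrays, and no test across genes was made. Counting and summary steps were tested on simulated data. Promoters came from RefSeq (GRCm38.p6).

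The members and gene lists were chosen with earlier results of these data known. Named are the 10 members with every probe set, for each pathway list up to 4 kept genes with the largest absolute Ets2 difference in PyMT fibroblasts, Srf, Mrtfa, Mrtfb, Myocd, Tgfb1, Actb, Actg1 and Ets2, the 6 genes nearest to Acta2 and to Acta1, and for marker lists the genes at least 2-fold apart between the PyMT arrays. Other marker genes, among them Lum, Dcn, Pdgfrb, Krt18, Krt19, Lyz2 and Lpl, fall outside this rule and were named with their values in view. So were Tead1, Tead2, Krt5, Itga6, Trp63, Cdh3, Tnni2, Fabp4, Cebpa, Cd14, Mrc1 and Ptprc. Alternatives were no filter, a filter at the 60th percentile (6.777), low values raised to the filter level, cyclic loess and quantile normalization (limma 3.58.1 in R 4.3.3), the mean over probe sets, and 1.5-fold and 4-fold thresholds. The kept probe set of lowest mean and a CArG box with 1 other base allowed were chosen after seeing the data. Tables were made with python 3.11.15, numpy 2.4.6 and pandas 2.3.3, and figures with matplotlib 3.10.9. The result of 1 further gene list, with the genes named for it, is not reported here.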

Additional observations from a re-analysis of the deposited data

Results flagged for a closer look

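For 14 of the genes named by rule the Ets2-null minus Ets2-present difference ran one way in PyMT and the other way in normal fibroblasts, with at least 2-fold between the 2 differences. With 1 array per group the difference between them was not tested. A gap of 2-fold or more, whatever the directions, was found in 11.2% of kept genes toward lower and in 10.2% toward higher values in PyMT. The share of kept genes that also had opposite directions was not counted. Many named genes were chosen for a large Ets2 difference in PyMT fibroblasts, which favours large gaps. Of the members this was so for Lmod1 alone, with -0.79 in PyMT and 0.28 in normal fibroblasts, a gap of -1.07. Among contractile and adhesion genes, Des had 1.02 and -0.09 (gap 1.10), Tagln2 -1.20 and 0.21 (gap -1.41), Fhl2 0.56 and -0.57 (gap 1.13) and Pxn 0.90 and -0.29 (gap 1.19). Of the genes that control contraction, Rnd3 had -1.03 and 0.24 (gap -1.28) and Ednrb -0.40 and 0.87 (gap -1.27). Thy1 had -1.25 and 0.20 (gap -1.45) and Bambi -1.41 and 0.64 (gap -2.04). Among markers of other cells, the pericyte gene Rgs5 had 1.08 and -0.68 (gap 1.76) and Mcam 1.78 and -1.02 (gap 2.80), the epithelial Epcam 1.42 and -0.08 (gap 1.498), and the macrophage genes Cd68 -1.04 and 0.66 (gap -1.70) and Fcgr3 -1.39 and 1.32 (gap -2.71). Low signal bears on some of these. With low values raised to the filter level, the gap was 0.22 for Des, -0.10 for Ednrb, 0.46 for Epcam, -0.34 for Cd68, -1.07 for Fcgr3 and 1.35 for Rgs5. On the kept probe set of lowest mean, Rgs5 had 0.92 in PyMT and 0.82 in normal fibroblasts, so that the opposite directions were lost, and the gap was 0.26 for Pxn and -0.87 for Rnd3. The groups have 1 sample each, so outlying samples could not be looked for.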

How the results depend on the processing

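No paired analysis was possible because each group has 1 array and the labels give no replicate numbers, and no replicate could be left out for the same reason. No difference that was at least 2-fold changed its direction under any alternative, and 9 of 350 member differences moved by more than the disagreement between probe sets. The members' median without Ets2 in PyMT minus normal, 0.33, was 0.53 with the mean over probe sets and 0.81 on the kept probe sets of lowest mean, and that of the Ets2 difference in normal cells, -0.02, was -0.21 under both. With the mean over probe sets, 0 members were at least 2-fold higher without Ets2 in PyMT fibroblasts and 0 in the difference of the Ets2 differences, because the Myh11 probe set below the filter enters the mean: Myh11 was then 0.66 in PyMT fibroblasts and 1.04 for PyMT minus normal without Ets2, and Acta2 -0.70 for Ets2-null minus Ets2-present in normal fibroblasts. At 1.5-fold, 2 members were lower without Ets2 in PyMT, beside 1468 of 8684 kept genes. In PyMT minus normal 4 members were higher without Ets2 and 4 with Ets2, beside 1829 and 1128 kept genes. In the difference of the Ets2 differences 2 members were higher, beside 1826 kept genes. At 4-fold, 0 members were called in either Ets2 difference or in the difference between them. Of the 8684 kept genes 82 were lower and 60 higher in PyMT fibroblasts, 7 and 25 in normal fibroblasts, and 202 and 152 in that difference. In PyMT minus normal 1 member was higher without Ets2 and 0 with it, beside 112 and 73 kept genes. On the kept probe set of lowest mean, 4 members, among them Acta2 (1.06) and Tpm2 (1.22), were at least 2-fold higher in PyMT with Ets2, beside 598 of 8692 genes. Acta2 then had 1.60 in PyMT without Ets2, -0.83 for Ets2-null minus Ets2-present in PyMT and -1.37 in normal cells, and Tpm1 -0.69 in normal fibroblasts. Under cyclic loess and quantile normalization each PyMT minus normal difference of the 10 members had the same sign, while Ets2-null minus Ets2-present in normal fibroblasts, near 0 for Tagln (-0.01), turned positive. Of 1280 differences of other named genes 47 moved, many of them with low values raised: Tgfb1 had -1.08, Des 0.22, Krt14 0.22 and Myog 0.69 for Ets2-null minus Ets2-present in PyMT fibroblasts.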
